A study of Mus musculus with 12 samples.

Results

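The 10 contractile actin cytoskeleton genes described here are Flna, Actn1, Tpm1, Tpm2, Cnn1, Cnn2, Myl9, Tagln, Acta2 and Actg2. They were chosen by gene symbol, as 10 of the 53599 rows of a raw count table from mouse liver progenitor-like cells. The cells were hepCLiP cells, derived from hepatocytes, and bilCLiP cells, derived from biliary epithelial cells (BEC), each grown as 3D spheroids and as 2D layers. Of the 10 genes, 7 passed the filter on low counts and were tested, whereas Tagln, Acta2 and Actg2 stayed below it. At the RNA level, Flna, Actn1, Tpm1 and Cnn2 were lower in 3D than in 2D in both origins. Cnn1 was also called lower in both, but it passed the filter mainly through 2D. Its call was kept in only 10 of 20 alternative runs in hepCLiP and 9 of 20 in bilCLiP.

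RNA-seq covered 4 groups of 3 libraries, hepCLiP 3D, hepCLiP 2D, bilCLiP 3D and bilCLiP 2D, assigned from the sample titles. The 2D cells grew on collagen in small hepatocyte medium (SHM) with 10% fetal bovine serum (FBS) and YAC, the mix of Y-27632, A83-01 and CHIR99021. The 3D cells formed spheroids for 3 days in microwells in SHM with YAC and no FBS, and then stayed 6 to 8 days in suspension with 10 ng/ml oncostatin M. Y-27632 inhibits the kinases ROCK1 and ROCK2, A83-01 inhibits TGF-beta type I receptors and CHIR99021 inhibits the kinase GSK3; YAC was present at every stage of all 4 groups. Shape, serum, oncostatin M and time in culture change together between 3D and 2D, so their parts cannot be told apart. The genotype label was RosaConfetti, a multicolour reporter, for hepCLiP replicates 1 and 3, and RosaYFP, a yellow fluorescent reporter, for hepCLiP replicate 2 and for all bilCLiP samples. Titles and treatment labels disagree for hepCLiP 2D replicate 3 (labelled 3D) and for all 3 samples titled bilCLiP 3D (labelled 2D). Across genes, the Pearson correlation of hepCLiP 2D replicate 3 was 0.960 and 0.968 with its own title's group, against 0.836 to 0.867 with libraries titled hepCLiP 3D. The correlation of that library was 0.945 to 0.958 with those titled bilCLiP 2D and 0.832 to 0.877 with those titled bilCLiP 3D. Beyond the genotype, which sets hepCLiP replicate 2 apart from replicates 1 and 3, the labels are silent on whether replicates are separate animals or cultures. The p-values therefore cover the spread between libraries, and how much of it is technical is unknown.

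Contractile actin bundles, or stress fibres, are built from actin filaments that alpha-actinin and filamin crosslink, tropomyosin and calponin coat, and myosin II pulls on. ROCK kinases promote this contraction through phosphorylation of the myosin regulatory light chain. Free actin is used up as filaments assemble, and its loss lets the coactivator MRTF enter the nucleus. There MRTF drives many genes of the same machinery through the serum response factor SRF. In liver, smooth muscle alpha-actin and transgelin are best known from activated stellate cells, myofibroblasts and vessel walls, whereas alpha-actinin 1, filamin A and the cytoplasmic actins are found in most cell types.

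SRF binds a DNA motif called the CArG box, and the RefSeq promoter windows of the genes (GRCm38.p6, 250 bases before to 50 bases after the start) were searched for it on both strands. A window was at hand for 8 of the 10 genes. An exact CArG box was found in 2 of these 8, Cnn2 and Myl9, and in 1.63% of all 32851 promoter windows. Both are shown with the box in capitals, together with Cnn1, the calponin whose window held no exact match. The windows are chr10:79988350-79988649 (plus strand) for Cnn2, chr2:156775214-156775513 (plus strand) for Myl9 and chr9:22099003-22099302 (plus strand) for Cnn1.
Cnn2: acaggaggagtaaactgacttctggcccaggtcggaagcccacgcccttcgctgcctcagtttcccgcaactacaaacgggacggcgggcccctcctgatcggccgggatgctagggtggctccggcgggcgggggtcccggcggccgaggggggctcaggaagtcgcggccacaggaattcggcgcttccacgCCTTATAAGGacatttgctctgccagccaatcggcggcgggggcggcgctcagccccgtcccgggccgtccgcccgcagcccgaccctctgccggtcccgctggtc
Myl9: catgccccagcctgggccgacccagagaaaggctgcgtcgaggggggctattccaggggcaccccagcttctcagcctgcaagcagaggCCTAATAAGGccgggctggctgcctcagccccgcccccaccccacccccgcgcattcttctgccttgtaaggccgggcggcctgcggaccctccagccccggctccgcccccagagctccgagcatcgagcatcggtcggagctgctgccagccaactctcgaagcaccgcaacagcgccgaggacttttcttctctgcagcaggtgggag
Cnn1: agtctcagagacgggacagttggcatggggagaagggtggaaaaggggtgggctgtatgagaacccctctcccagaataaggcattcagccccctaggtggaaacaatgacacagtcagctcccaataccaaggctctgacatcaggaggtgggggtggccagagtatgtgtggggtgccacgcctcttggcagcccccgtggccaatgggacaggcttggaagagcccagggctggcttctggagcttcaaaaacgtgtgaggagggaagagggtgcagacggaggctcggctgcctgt
The box began 56 bases before the start of Cnn2 and 161 bases before that of Myl9. The motif GGAATG, bound by TEAD factors, was found in the windows of Acta2, Tpm1 and Flna, 3 of the 8, and in 14.7% of all windows. No match in a window says only that these letters are not there, and a match is not a binding site. Near matches to the CArG box, such as ccctatatgg and ccttgtttgg in the Acta2 window, were not counted.

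Each library held 16142365 to 21253382 counts. Levels are given as CPM, the counts of a gene scaled to a common library total and adjusted by TMM, a method that equalises the bulk of genes between libraries, with factors of 0.764 to 0.941 in 3D and 1.16 to 1.26 in 2D. Fold changes are on the log2 scale, 3D over 2D, with standard errors (SE) and Benjamini-Hochberg adjusted p-values from edgeR's quasi-likelihood test, and a gene was called at an adjusted p under 0.05. A count of 0 in a library allows up to 3 counts, or 0.116 to 0.220 CPM, counting error only. In bulk RNA, fewer cells of a type and less RNA per cell cannot be told apart.

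Filamin A and alpha-actinin 1, the crosslinkers of the group, were lower in 3D in both origins. Flna, on chromosome X, encodes filamin A, which ties actin filaments into networks and to membrane receptors. It measured 449, 288 and 345 CPM in hepCLiP 3D (replicates 1, 2 and 3) and 1417, 1021 and 1622 CPM in hepCLiP 2D. It measured 451, 311 and 589 CPM in bilCLiP 3D and 1279, 1081 and 1404 CPM in bilCLiP 2D. Every 3D library was below every 2D library in each origin. The log2 fold change was -1.91 ± 0.278 (SE, adjusted p = 0.000638) in hepCLiP and -1.48 ± 0.275 (adjusted p = 0.00267) in bilCLiP by edgeR's quasi-likelihood test.

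Actn1, on chromosome 12, encodes alpha-actinin 1, the crosslinker of parallel filaments in stress fibres and at focal adhesions. It measured 99.4, 153 and 168 CPM in hepCLiP 3D and 488, 572 and 755 CPM in hepCLiP 2D. It measured 207, 158 and 215 CPM in bilCLiP 3D and 717, 474 and 639 CPM in bilCLiP 2D. The groups did not overlap in either origin. The log2 fold change was -2.11 ± 0.258 (adjusted p = 0.000254) in hepCLiP and -1.66 ± 0.254 (adjusted p = 0.000962) in bilCLiP. In the GENCODE M21 annotation Actn1 overlaps Gm47765 on its own strand and Gm47766 and Gm47767 on the other, and reads shared with them could not be separated because the counting options are unknown here.

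Of the tropomyosins, which wind along the actin filament and set how myosin and severing proteins reach it, Tpm1 was abundant and Tpm2 was not. Tpm1, on chromosome 9, measured 165, 164 and 191 CPM in hepCLiP 3D and 1017, 449.5 and 727 CPM in hepCLiP 2D. It measured 235, 171 and 241 CPM in bilCLiP 3D and 908, 544 and 799 CPM in bilCLiP 2D. The 3D libraries lay close together in hepCLiP, with a coefficient of variation (CV) of 8.94% against 38.8% in hepCLiP 2D, and no 3D library reached a 2D library. The log2 fold change was -2.08 ± 0.298 (adjusted p = 0.000586) in hepCLiP and -1.80 ± 0.295 (adjusted p = 0.00136) in bilCLiP.

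Tpm2, the beta-tropomyosin gene on chromosome 4, measured 0.220, 0.638 and 2.57 CPM in hepCLiP 3D and 2.08, 3.95 and 9.33 CPM in hepCLiP 2D. It measured 0.526, 1.43 and 4.87 CPM in bilCLiP 3D and 2.32, 7.18 and 31.0 CPM in bilCLiP 2D. Replicate 3 was the highest and replicate 1 the lowest library of each of the 4 groups, and 3D overlapped with 2D in both origins. Within each same-numbered pair, the 3D level was 10.6% to 27.5% of the 2D level in hepCLiP and 15.7% to 22.7% in bilCLiP. Without the pairing the change did not pass, at -2.15 ± 1.15 (adjusted p = 0.171) in hepCLiP and -2.56 ± 1.13 (adjusted p = 0.111) in bilCLiP. Leaving out 1 library moved it between -3.55 (without hepCLiP 3D replicate 3) and -1.39 (without hepCLiP 2D replicate 3) in hepCLiP, and between -3.76 (without bilCLiP 3D replicate 3) and -1.06 (without bilCLiP 2D replicate 3) in bilCLiP. With the replicate number as a block, edgeR's quasi-likelihood test gave -2.37 ± 0.301 (adjusted p = 0.000825) in hepCLiP and -2.43 ± 0.279 (adjusted p = 0.000644) in bilCLiP.

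Both calponin genes were lower in 3D. Cnn2, on chromosome 10, encodes calponin 2, an actin-binding protein of many non-muscle cells. It measured 22.8, 11.2 and 18.2 CPM in hepCLiP 3D and 118, 97.5 and 235 CPM in hepCLiP 2D. It measured 27.3, 21.3 and 44.1 CPM in bilCLiP 3D and 168, 112 and 162 CPM in bilCLiP 2D. The groups did not overlap, and the fitted level in 3D was 11.6% of that in 2D in hepCLiP and 20.96% in bilCLiP. The log2 fold change was -3.11 ± 0.415 (adjusted p = 0.000413) in hepCLiP and -2.25 ± 0.399 (adjusted p = 0.00208) in bilCLiP.

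Cnn1, on chromosome 9, encodes calponin 1, a marker of differentiated smooth muscle that binds actin and restrains myosin. It measured 0.878, 0.0709 and 0.417 CPM in hepCLiP 3D and 22.5, 0.590 and 6.69 CPM in hepCLiP 2D. It measured 0.329, 0.0574 and 0.406 CPM in bilCLiP 3D and 15.1, 0.505 and 3.23 CPM in bilCLiP 2D. Replicate 2 was lowest in every group, hepCLiP overlapped between cultures and bilCLiP did not. The highest 2D library stood 38.0 times above the lowest in hepCLiP and 29.8 times in bilCLiP. The log2 fold change was -4.43 ± 1.48 (adjusted p = 0.0387) in hepCLiP and -4.54 ± 1.52 (adjusted p = 0.0436) in bilCLiP.

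The Cnn1 calls lay near the threshold and were lost when any of several libraries was left out. In hepCLiP the call was lost when hepCLiP 3D replicate 1, 2 or 3, hepCLiP 2D replicate 1 or 3, or bilCLiP 3D replicate 1 or 3 was left out, at adjusted p = 0.0529 to 0.139 by edgeR's quasi-likelihood test. In bilCLiP it was lost without hepCLiP 3D replicate 1 or 3, hepCLiP 2D replicate 3, bilCLiP 3D replicate 1, 2 or 3, or bilCLiP 2D replicate 1 or 3, at adjusted p = 0.0526 to 0.178. Without hepCLiP 2D replicate 1 the hepCLiP change was -2.98, and without bilCLiP 2D replicate 1 the bilCLiP change was -2.79. Without hepCLiP 3D replicate 1 the hepCLiP change was -5.23. With the replicate block the change was -4.27 ± 0.526 (adjusted p = 0.000735) in hepCLiP and -4.15 ± 0.550 (adjusted p = 0.00111) in bilCLiP.

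Myl9, on chromosome 2, encodes the regulatory light chain of smooth muscle and non-muscle myosin II, whose phosphorylation promotes contraction. It had 5, 0 and 0 counts in hepCLiP 3D and 193, 12 and 31 counts in hepCLiP 2D, which is 0.366 CPM in hepCLiP 3D replicate 1 and 8.92, 0.545 and 1.55 CPM in hepCLiP 2D. It measured 0.197, 0.0574 and 2.49 CPM in bilCLiP 3D and 2.07, 0.427 and 9.42 CPM in bilCLiP 2D. The cultures did not overlap in hepCLiP and overlapped in bilCLiP, where replicate 3 was the highest library in 3D and in 2D. Summed over libraries, the ratio of 3D to 2D was 0.0320 in hepCLiP (95% counting interval 0.0103 to 0.0757) and 0.251 in bilCLiP (0.180 to 0.344), counting error only. Without the pairing the fitted change did not pass, with adjusted p = 0.0657 in hepCLiP and 0.323 in bilCLiP by edgeR's quasi-likelihood test. In bilCLiP it was -2.10, and -4.92 without bilCLiP 3D replicate 3 and -0.43 without bilCLiP 2D replicate 3. With the replicate block it was -4.99 ± 0.612 (adjusted p = 0.000717) in hepCLiP and -2.42 ± 0.458 (adjusted p = 0.00497) in bilCLiP. Without bilCLiP 3D replicate 3, the hepCLiP value passed at adjusted p = 0.0491.

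The smooth muscle actins and transgelin were near or below detection. Acta2, which encodes smooth muscle alpha-actin and marks myofibroblasts, had 0 counts in each hepCLiP 3D library and 3, 0 and 0 counts in hepCLiP 2D. It had 1, 0 and 16 counts in bilCLiP 3D and 0, 0 and 2 counts in bilCLiP 2D. The ratio of 3D to 2D in bilCLiP, 12.1 with a 95% counting interval of 2.87 to 108, rested on 16 of 17 counts in replicate 3. Actg2, smooth muscle gamma-actin, had at most 2 counts in any library, and differences were not detectable at this depth.

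Tagln, which encodes the actin-binding protein transgelin and overlaps Pcsk7 and Gm48529 on the other strand, had 4, 3 and 2 counts in hepCLiP 3D and 4, 6 and 8 counts in hepCLiP 2D. It had 2, 4 and 1 counts in bilCLiP 3D and 11, 8 and 3 counts in bilCLiP 2D. The ratio of 3D to 2D was 0.755 (95% counting interval 0.299 to 1.77) in hepCLiP and 0.453 (0.163 to 1.10) in bilCLiP. Neither interval left out a ratio of 1.

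**Figure D1:**
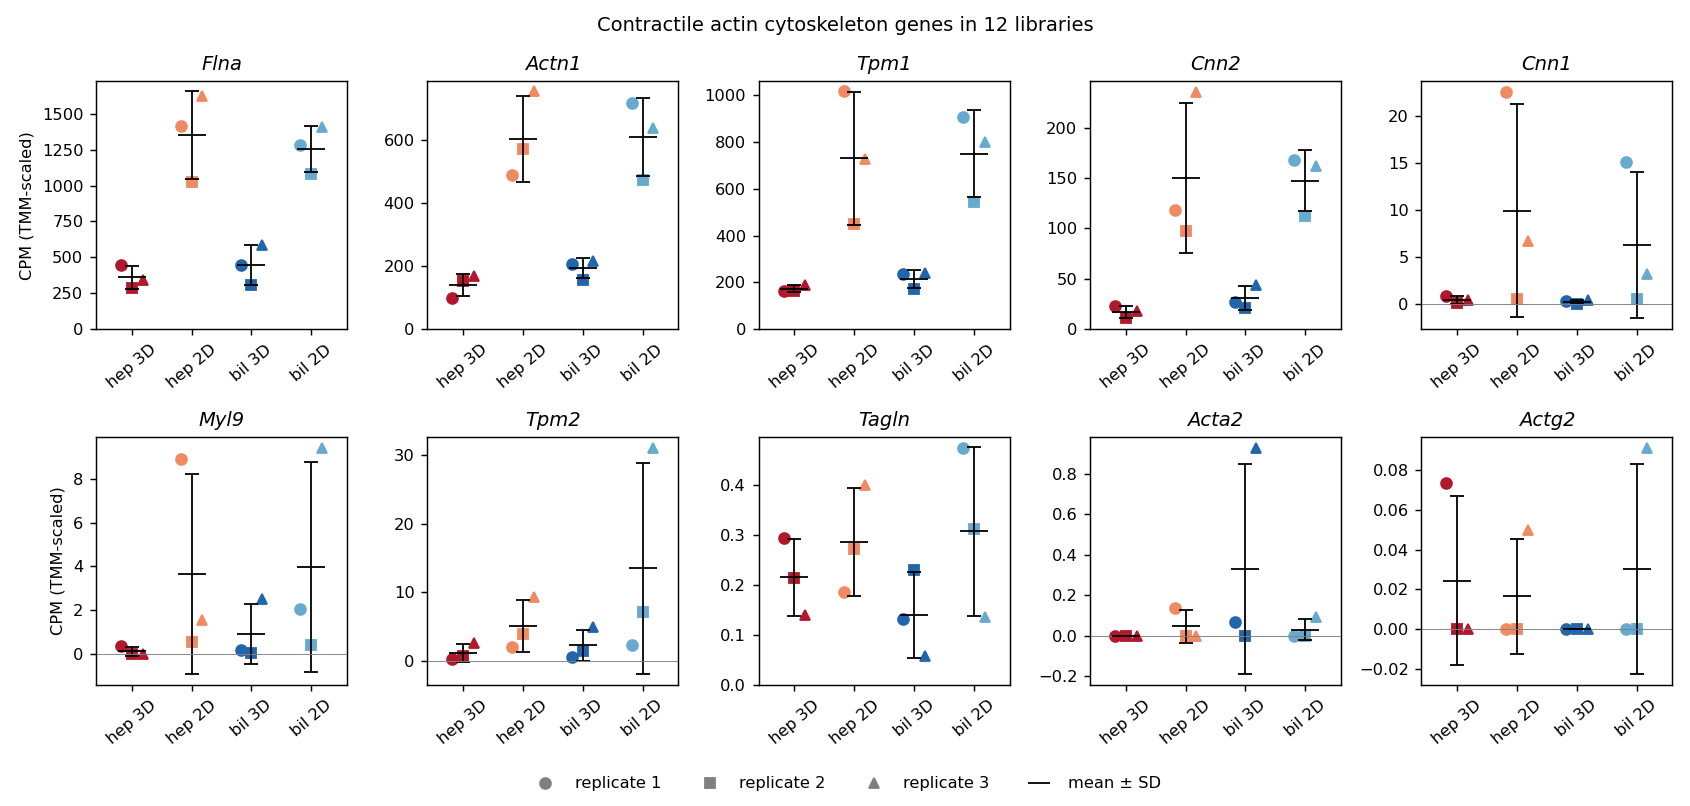
CPM of each of the 10 genes (y axis, linear, own scale per gene) in hepCLiP 3D, hepCLiP 2D, bilCLiP 3D and bilCLiP 2D (x axis), with 1 point per library, its shape giving the replicate number, and bars for the mean and SD of 3 libraries. Flna, Actn1, Tpm1 and Cnn2 show no overlap between 3D and 2D in either origin, whereas Acta2 and Actg2 stay below 1 CPM in every library.

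Levels were set against each other per kilobase of merged exon (GENCODE M21 on GRCm38, which may differ from the annotation used for counting). In hepCLiP 3D, Flna averaged 42.5 CPM per kb, Actn1 36.9 and Tpm1 36.2, and in hepCLiP 2D they averaged 159, 159 and 153 CPM per kb. These 3 overlapped in their libraries within each culture. Cnn2 came next, at 7.08 CPM per kb in hepCLiP 3D and 61.0 in hepCLiP 2D, below every library of the first 3 in hepCLiP 3D. In hepCLiP 2D its highest library, at 95.5 CPM per kb, overlapped with the lowest of Tpm1, at 94.0. Cnn1, Myl9 and Tpm2 followed, at 0.181, 0.108 and 0.479 CPM per kb in hepCLiP 3D and 3.93, 3.25 and 2.15 in hepCLiP 2D, and could not be ordered within their spread. In bilCLiP the order was alike: Flna, Actn1 and Tpm1 averaged 45.1 to 53.1 CPM per kb in 3D and 148 to 161 in 2D, and Cnn2 12.6 in 3D and 59.9 in 2D.

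In hepCLiP, 5 of the 7 tested genes were called lower in 3D and 0 were called higher, where 17.9% of all 14798 genes tested were called lower and 16.9% higher. In bilCLiP, the same 5, Flna, Actn1, Tpm1, Cnn2 and Cnn1, were called lower and 0 higher, against 14.5% of all genes lower and 15.8% higher. Of all genes, 12% were called lower in both. The groups did not overlap, with 3D below 2D, for 5 of the 7 in each origin, against 24.5% of all genes in hepCLiP and 24.5% in bilCLiP. The median log2 fold change of the 7 was -2.15 in hepCLiP and -2.10 in bilCLiP, against -0.06 and -0.00 over all genes tested. Those medians were the values of Tpm2 in hepCLiP and of Myl9 in bilCLiP, neither of them called. Leaving out 1 library moved the median of the genes to between -3.14 (without hepCLiP 3D replicate 3) and -2.02 in hepCLiP, and between -2.60 (without bilCLiP 3D replicate 3) and -1.62 (without bilCLiP 2D replicate 3) in bilCLiP. A gene of low level passes the filter only through a group where it is high, so these counts describe the 7 genes and not the 3 below the filter. Cnn1 and Myl9 had few counts in most 3D libraries and passed mainly through 2D, so the filter selected in part for their fall. Flna, Actn1, Tpm1 and Cnn2 measured at least 11.2 CPM in every library. With the replicate block 7 of 7 were called lower in each origin, against 24.7% of all genes in hepCLiP and 21.5% in bilCLiP. The genes gained, Myl9 and Tpm2, were low in 3D, at no more than 2.49 and 4.87 CPM in any library. The gain therefore describes these genes alone.

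Scaling by total counts alone, without TMM, lowered all genes in 3D by 0.57 on the log2 scale in hepCLiP and 0.47 in bilCLiP, as medians. With it, 16.3% of calls were higher in 3D in hepCLiP, against 48.6% with TMM, and 19.9% in bilCLiP, against 52.1%. The median of the 7 genes was then -2.67 in hepCLiP and -2.55 in bilCLiP.

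**Figure D2:**
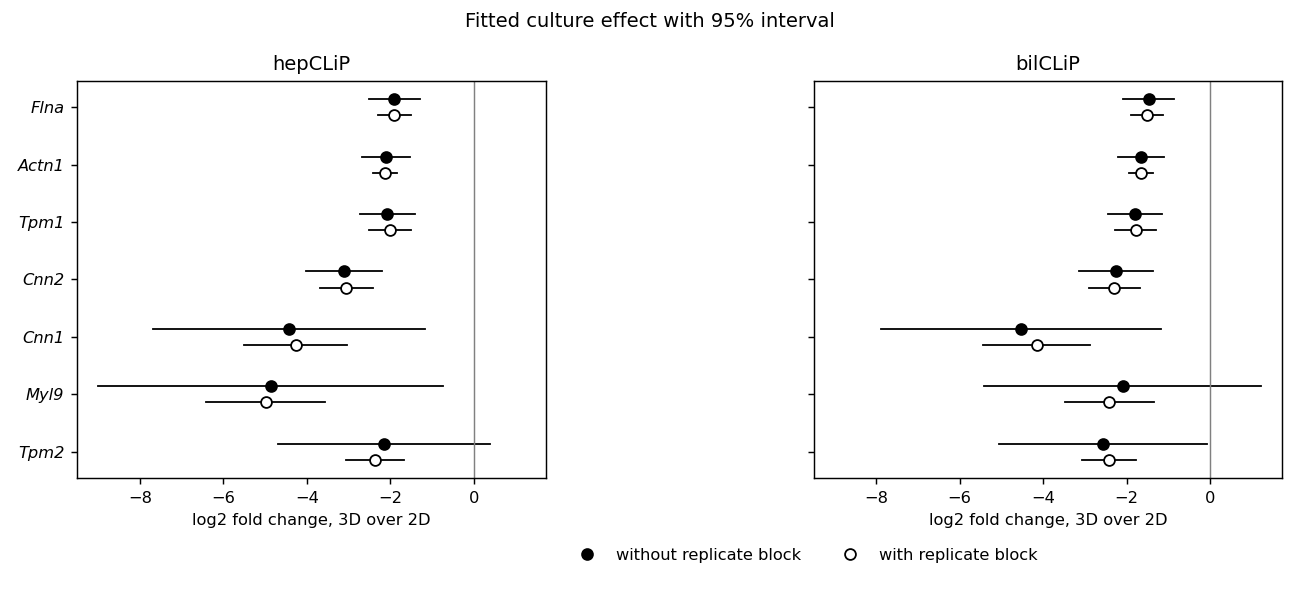
Fitted log2 fold change, 3D over 2D (x axis), of the 7 tested genes (rows) in hepCLiP (left) and bilCLiP (right), with 95% intervals as lines; filled points are the fit without the replicate block and open points the fit with it. All 14 points of each kind lie below 0, and the intervals of Myl9 and Tpm2 shorten with the block.

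No difference between the origins passed for any of the 7 genes. In 3D, bilCLiP over hepCLiP, the log2 differences were 0.83 for Cnn2 (95% interval -0.03 to 1.69), 0.46 for Actn1 (-0.08 to 1.01), 0.32 for Tpm1 (-0.32 to 0.95) and 0.32 for Flna (-0.28 to 0.91). In 2D, they were -0.03 for Cnn2 (-0.86 to 0.81), 0.01 for Actn1 (-0.53 to 0.56), 0.04 for Tpm1 (-0.59 to 0.67) and -0.11 for Flna (-0.70 to 0.48). The lowest adjusted p of the 4 in 3D was 0.315, that of Cnn2, by edgeR's quasi-likelihood test. Of all genes, 0.101% were called in 3D and 0.135% in 2D. The intervals of Cnn1, Myl9 and Tpm2 were far wider, at -0.97 to 3.77 for Tpm2 in 2D and -1.26 to 7.01 for Myl9 in 3D, and no origin difference was detectable for them.

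The fall in 3D was not shown to differ between the origins either. The difference of the culture effects, bilCLiP minus hepCLiP, was 0.85 for Cnn2 (95% interval -0.35 to 2.05), 0.45 for Actn1 (-0.32 to 1.22), 0.43 for Flna (-0.41 to 1.27) and 0.28 for Tpm1 (-0.62 to 1.17). For all 4 the fall was larger in hepCLiP by its point estimate, within the interval. Over all genes, edgeR's quasi-likelihood test called 0 (0%) for this difference, with 532 at an unadjusted p under 0.05, and DESeq2 called 16. None of the 7 genes was called for origin or for this difference under any alternative run, DESeq2 included.

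Same-numbered libraries of an origin moved together. Each of the 7 tested genes was lower in 3D in all 3 same-numbered pairs of each origin. The 3D level was 20.4% to 26.8% of the 2D level for Actn1 in hepCLiP and 28.9% to 33.7% in bilCLiP. For Cnn2 it was 7.74% to 19.3% in hepCLiP and 16.3% to 27.2% in bilCLiP. For Flna it was 21.3% to 31.7% in hepCLiP and 28.7% to 42.0% in bilCLiP. Replicate 2 was the lowest library for 5 of the 7 genes in hepCLiP 3D, where it tied with replicate 3 at 0 counts of Myl9, for 5 in hepCLiP 2D, and for 6 of the 7 in bilCLiP 3D and in bilCLiP 2D, and it was the highest for none in any group. Replicate 3 of bilCLiP 3D was the highest library of its group for 7 of the 7.

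The gene of the near-identical cytoplasmic gamma-actin, Actg1, stood apart in that culture, and it is described here because of its values. It had 6886, 6678 and 4 counts in bilCLiP 3D and 28587, 29672 and 2 counts in bilCLiP 2D. In hepCLiP it had 5413, 4470 and 5425 counts in 3D and 35416, 27038 and 30512 counts in 2D. Both libraries of bilCLiP replicate 3 were at or near 0, and the lowest of the others had 4470. A screen for genes with at least 1000 counts in every other library and at least 50 times fewer in both same-numbered libraries considered 1895 genes for bilCLiP replicate 3 and found Actg1 alone. The same screen found 0 genes for each of the other 5 pairs of libraries.

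Actb, which encodes beta-actin, the other cytoplasmic actin, had 18289 counts in bilCLiP 3D replicate 3, against 10642 and 12423 in replicates 1 and 2 of that group. In bilCLiP 2D it had 45281 counts in replicate 3, against 34728 and 35127 in the others. Replicate 3 was the highest Actb library of its group in both cultures, also in CPM. The same replicate held 16 of the 17 Acta2 counts of bilCLiP 3D, 43 of its 47 Myl9 counts and 84 of its 117 Tpm2 counts, and 207 of the 266 Myl9 counts and 682 of the 921 Tpm2 counts of bilCLiP 2D. Whether the missing Actg1 counts bear on these values was not tested.

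**Figure D3:**
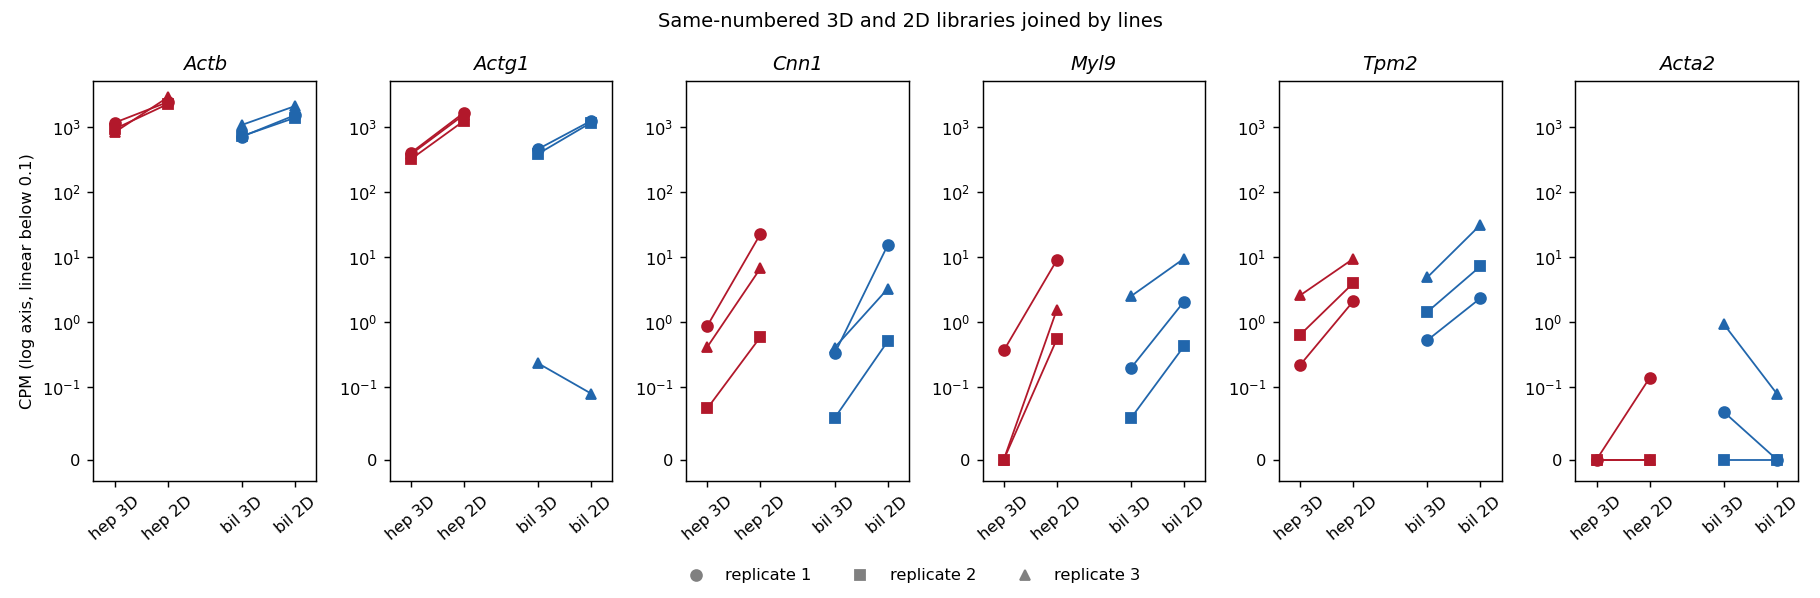
CPM (y axis, log scale, linear below 0.1) of Actb, Actg1, Cnn1, Myl9, Tpm2 and Acta2 in 3D and 2D libraries (x axis), red for hepCLiP and blue for bilCLiP, with lines joining libraries of the same replicate number. Actg1 lies below 1 CPM in both libraries of bilCLiP replicate 3 and above 300 CPM in the other 10; replicate 2 is the lowest library of each group for Cnn1 and replicate 3 the highest for Tpm2.

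With both libraries of bilCLiP replicate 3 left out, a setting added after seeing the data, Actg1 was lower in 3D at -2.01 ± 0.194 (adjusted p = 0.000451) in hepCLiP and -1.51 ± 0.233 (adjusted p = 0.00477) in bilCLiP by edgeR's quasi-likelihood test. With all libraries those values were -2.01 (adjusted p = 0.441) and -1.51 (adjusted p = 0.581). Flna, Actn1, Tpm1 and Cnn2 remained called lower in both origins without it. Cnn1 did not, at adjusted p = 0.0664 in hepCLiP and 0.118 in bilCLiP, and Myl9 passed in hepCLiP at adjusted p = 0.0413.

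The wider families of the 10 genes moved the same way for most members called. Of 17 non-muscle and striated paralogs, 14 were tested, and 8 fell and 1 rose in 3D in each origin, with medians of -1.16 in hepCLiP and -0.88 in bilCLiP. Counts for this list and those below stand beside the shares of all genes tested. These were 17.9% lower and 16.9% higher in hepCLiP, and 14.5% lower and 15.8% higher in bilCLiP, with TMM and no block. Flnc, the muscle filamin, had log2 fold changes of -3.85 in hepCLiP and -3.41 in bilCLiP. Tpm4, a non-muscle tropomyosin, had log2 fold changes of -1.92 in hepCLiP and -1.48 in bilCLiP. Actb had log2 fold changes of -1.36 in hepCLiP (adjusted p = 0.00193) and -0.99 in bilCLiP (adjusted p = 0.0110). Actn3, the alpha-actinin of fast muscle fibres, was the exception, at 10.8 ± 8.92 CPM in hepCLiP 3D and 0.346 ± 0.142 CPM in hepCLiP 2D, and 6.10 ± 4.23 CPM in bilCLiP 3D and 0.251 ± 0.105 CPM in bilCLiP 2D (SD, n = 3 each). Its log2 fold change was 4.93 ± 0.867 (adjusted p = 0.00169) in hepCLiP and 4.56 ± 0.865 (adjusted p = 0.00298) in bilCLiP. The light chain gene Myl6 and the calponin gene Cnn3 did not pass in either origin.

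Lists of genes that drive or regulate contraction had medians nearer to 0 than that of the 7 genes. Of 10 genes for myosin II heavy chains, light chain kinase and phosphatase, 9 were tested, and 3 fell and 1 rose in each origin, with medians of -0.79 in hepCLiP and -0.62 in bilCLiP. Under total-count scaling 6 were called lower in each origin, with medians of -1.36 in hepCLiP and -1.11 in bilCLiP. Myh9, the main non-muscle myosin II heavy chain, had log2 fold changes of -1.08 in hepCLiP and -1.07 in bilCLiP. Myh14, another non-muscle heavy chain, rose, with log2 fold changes of 1.52 in hepCLiP and 1.54 in bilCLiP. Ppp1r12a, the myosin-targeting subunit of the light chain phosphatase, had log2 fold changes of -1.07 in hepCLiP and -0.88 in bilCLiP. Mylk, the light chain kinase, measured 32.2 ± 22.0 CPM in hepCLiP 3D and 29.7 ± 5.63 CPM in hepCLiP 2D (SD, n = 3 each) and did not pass.

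Rock2, a target of Y-27632, averaged 95.4 ± 20.7 CPM in hepCLiP 3D and 282 ± 89.7 CPM in hepCLiP 2D, and 109 ± 4.78 CPM in bilCLiP 3D and 269 ± 11.9 CPM in bilCLiP 2D (SD, n = 3 each). It fell in both, with log2 fold changes of -1.56 in hepCLiP (adjusted p = 0.000546) and -1.31 in bilCLiP (adjusted p = 0.00154). Rock1, the other target, averaged 76.0 ± 12.1 CPM in hepCLiP 3D and 79.8 ± 3.33 CPM in hepCLiP 2D, and 70.9 ± 3.98 CPM in bilCLiP 3D and 77.4 ± 4.27 CPM in bilCLiP 2D, without a call.

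Transcripts of SRF and of its coactivators Mrtfa and Mrtfb were not called. Srf measured 36.3 ± 9.30 CPM in hepCLiP 3D and 39.8 ± 9.23 CPM in hepCLiP 2D, and 29.6 ± 4.06 CPM in bilCLiP 3D and 31.5 ± 3.37 CPM in bilCLiP 2D (SD, n = 3 each). Mrtfa and Mrtfb, which sense free actin, had log2 fold changes of 0.08 and -0.02 in hepCLiP and 0.21 and -0.08 in bilCLiP. Of the 13 tested genes of that list, 5 fell and 0 rose in each origin, with medians of -0.91 in hepCLiP and -0.81 in bilCLiP. Ccn1, a secreted matricellular protein, averaged 31.1 ± 13.9 CPM in hepCLiP 3D and 714 ± 326 CPM in hepCLiP 2D, and 64.0 ± 25.3 CPM in bilCLiP 3D and 726 ± 17.8 CPM in bilCLiP 2D. Its log2 fold change was -4.52 ± 0.483 (adjusted p = 0.000139) in hepCLiP and -3.50 ± 0.460 (adjusted p = 0.000445) in bilCLiP. Fosl1 and Fos, members of the AP-1 transcription factor family, had log2 fold changes of -3.20 and -2.80 in hepCLiP and -3.77 and -2.59 in bilCLiP. Ccn2, a relative of Ccn1, had log2 fold changes of -2.41 in hepCLiP and -2.30 in bilCLiP. The 3D means of Fhl2, Csrp1 and Vcl were also lower, at 23.4%, 36.7% and 53.4% of the 2D mean in hepCLiP. In bilCLiP they were at 31.7%, 40.8% and 57.2%, where the libraries of each overlapped between cultures. Egr1, Junb and Zyx did not share this fall. The 3D mean of Egr1 was 109% of the 2D mean in hepCLiP and 103% in bilCLiP, and that of Junb 125% and 126%, without a call. For Zyx it was 89.1% in hepCLiP and 96.3% in bilCLiP. Under total-count scaling 9 genes of the list were called lower in hepCLiP and 8 in bilCLiP.

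Of 19 focal adhesion and stress fibre genes, 18 were tested, and 11 fell and 1 rose in hepCLiP, and 10 fell and 1 rose in bilCLiP, with medians of -0.89 and -0.84. Tes, a LIM protein of focal adhesions, had log2 fold changes of -1.53 in hepCLiP and -1.27 in bilCLiP. Tln1, talin 1, which links integrins to actin, had log2 fold changes of -1.32 in hepCLiP and -0.99 in bilCLiP. Lpp had log2 fold changes of -1.04 in hepCLiP and -1.45 in bilCLiP. The gene that rose was Fermt2, kindlin 2, in hepCLiP at 1.26, a call lost under total-count scaling (adjusted p = 0.0605), and Pdlim1 in bilCLiP at 1.29. With the replicate block 13 fell and 2 rose in hepCLiP, and 14 fell and 3 rose in bilCLiP.

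**Figure D4:**
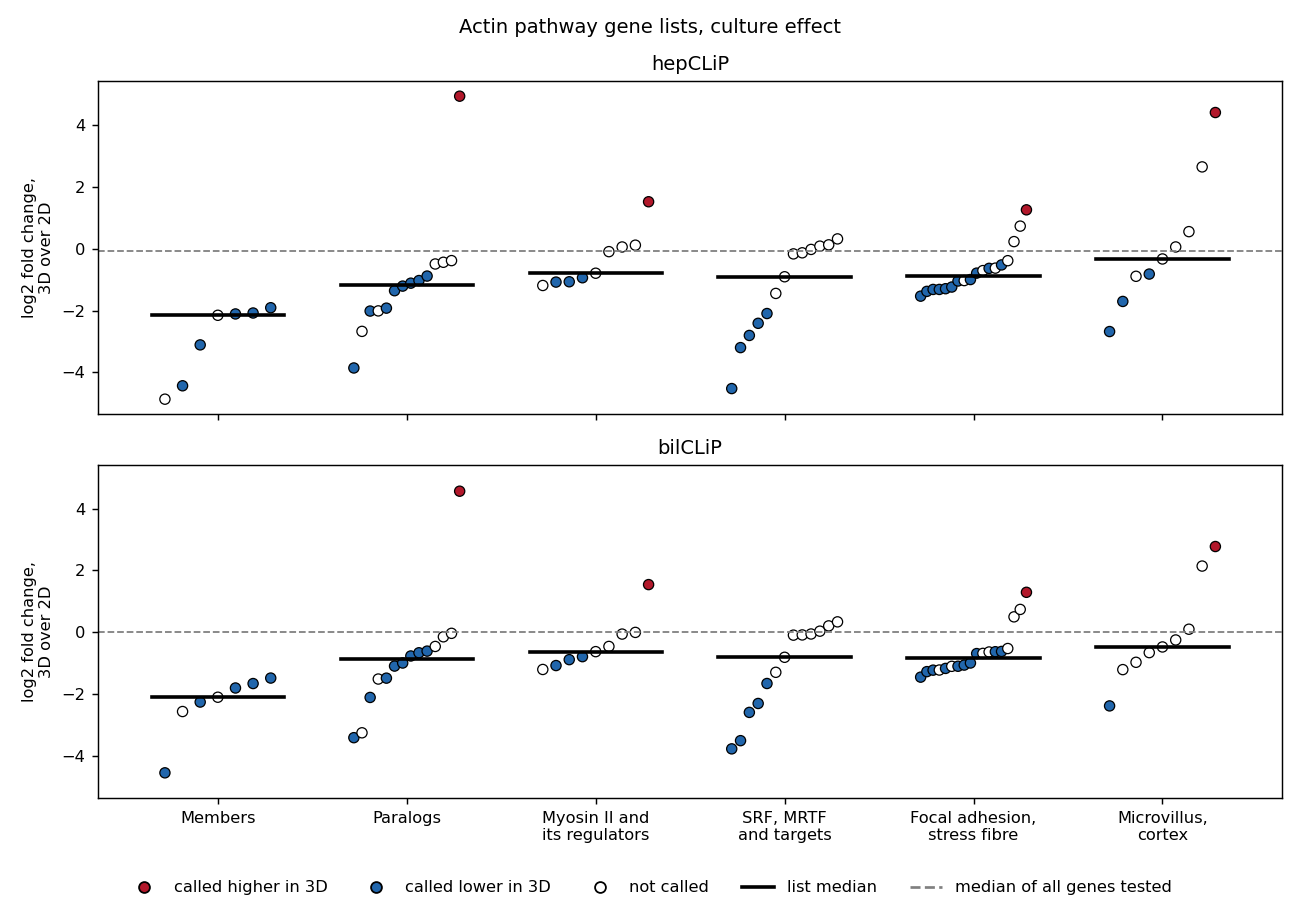
Log2 fold change, 3D over 2D (y axis), of each tested gene of 6 lists (x axis) in hepCLiP (top) and bilCLiP (bottom); red and blue points are called higher and lower, open points are not called, bars are list medians and the dashed line is the median of all genes tested. The 7 tested genes of the 10-gene group, labelled Members, have the lowest median of the 6 lists in each origin, at -2.15 and -2.10.

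Markers of other cell types that express these genes were read beside them. Of 8 smooth muscle markers outside the 10 genes, 3 were tested and 2 fell in each origin. Their summed level was 12.05 to 24.5 CPM in hepCLiP 3D and 37.1 to 73.8 CPM in hepCLiP 2D, and 20.2 to 21.8 CPM in bilCLiP 3D and 34.2 to 60.6 CPM in bilCLiP 2D, nearly all of it Smtn (smoothelin). Myocd, the smooth muscle coactivator of SRF, had 0 counts in all 6 3D libraries and averaged 0.523 ± 0.334 CPM in hepCLiP 2D and 0.409 ± 0.262 CPM in bilCLiP 2D (SD, n = 3 each). It was called lower in both origins, but it passed the filter only through 2D and so could only be called lower. Myh11, the smooth muscle myosin heavy chain, stayed under 1 CPM on average in every group, Kcnmb1 had 0 counts in every library and Des had 0 counts in bilCLiP.

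Of 12 stellate cell and fibroblast markers, 3 were tested and 1 was called higher in each origin, Dcn (decorin) in hepCLiP and Reln (reelin) in bilCLiP. The Reln call was lost under total-count scaling (adjusted p = 0.0616), and DESeq2 gave no adjusted p for Dcn. Their sum was 6.39 to 291 CPM in hepCLiP 3D and 1.59 to 9.52 CPM in hepCLiP 2D, and 24.6 to 39.7 CPM in bilCLiP 3D and 3.57 to 5.10 CPM in bilCLiP 2D. The libraries overlapped between cultures in hepCLiP and not in bilCLiP. Dcn and Reln carried most of the sum in 3D, and 1 hepCLiP 3D library held 281 CPM of Dcn. Pdgfrb averaged 0.213 CPM in hepCLiP 3D and 0.442 CPM in hepCLiP 2D, and 0.0193 CPM in bilCLiP 3D and 0.0447 CPM in bilCLiP 2D, without passing the filter, and Lum, Thy1, Col1a2 and Col3a1 were at 0 or below 0.2 CPM on average in every group. Of 7 mesothelial markers, 2 were tested and Msln, mesothelin, fell in both origins. Their sum was 5.93 to 25.8 CPM in hepCLiP 3D and 333 to 988 CPM in hepCLiP 2D, and 13.03 to 27.99 CPM in bilCLiP 3D and 546 to 873 CPM in bilCLiP 2D. Msln carried nearly all of that sum, at 558 of a mean of 559 CPM in hepCLiP 2D and 700.4 of 703 CPM in bilCLiP 2D. Gpm6a did not pass, Wt1, Upk3b, Lrrn4 and Muc16 averaged under 0.2 CPM in every group, and Bnc1 had 0 counts in every library. The part of the marker levels in the contractile genes was not tested.

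The 6 hepatocyte markers all rose in 3D in both origins, and their sum was 40716 to 51421 CPM in hepCLiP 3D and 341 to 1605 CPM in hepCLiP 2D, and 17376 to 43187 CPM in bilCLiP 3D and 179.5 to 1042 CPM in bilCLiP 2D. Of 6 biliary markers, 3 fell and 1 rose in hepCLiP, and 2 fell and 1 rose in bilCLiP, and their sum was 11334 to 15668 CPM in hepCLiP 3D and 3614 to 6558 CPM in hepCLiP 2D, and 13719 to 33309 CPM in bilCLiP 3D and 6054 to 10902.5 CPM in bilCLiP 2D. Spp1, osteopontin, carried that sum and rose, with log2 fold changes of 2.35 in hepCLiP and 1.99 in bilCLiP. The bile duct keratin gene Krt19 fell in both, with log2 fold changes of -6.62 in hepCLiP and -7.02 in bilCLiP. Tspan8 fell in both origins, Krt7 fell in hepCLiP, and Epcam and Sox9 did not pass in either. Endothelial markers summed to at most 3.66 CPM in any library and leukocyte markers to at most 19.4 CPM, and of these 1 endothelial marker was called, lower in bilCLiP 3D.

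Genes with the profile most like each contractile gene were found by the root mean square difference of centred log2(CPM + 1) over the 12 libraries, among 10808 genes. The nearest profile to Actn1 was that of Hes1, a Notch target, at 0.142, with Kif3c and Cdca7 at 0.231 each. Tpm1 was nearest to Marcksl1 at 0.282, Homer3 at 0.294 and Mtap at 0.298. Cnn2 was nearest to Tubb2b at 0.317, Pla2r1 at 0.324 and Trim59 at 0.336. The genes of low level had no neighbour as near. Tpm2 was nearest to Tmem252 at 0.499, Myl9 to Sema6a at 0.551 and Cnn1 to Cyp26b1 at 0.638. Among the 7 themselves, Tpm1 and Flna were nearest at 0.280, and Cnn1 and Tpm2 farthest apart at 1.71.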

How the data were processed

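RNA-seq of 12 libraries, 3 per group, was analysed from the raw gene counts that the authors deposited. Per the submitters' processing notes, the tools included STAR (2.7.10b), featureCounts (2.0.1) and DESeq2, with GRCm39 as the build; the gene annotation and the use of strand are unknown here. The deposited normalized table was not used. In R 4.3.3, edgeR 4.0.16 (filterByExpr, 14798 genes kept; TMM; robust quasi-likelihood fit of 4 group means over all libraries) gave 5 contrasts, with p-values adjusted over all genes. Each SE is the absolute log2 fold change over the root of its F. The fit was tested on simulated data.

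The 10 genes and the other lists were chosen with earlier results of these data known. Named were all 10 genes, up to 4 called genes per list and contrast with the largest changes, and, for genes with an SD of log2(CPM + 1) over 1, the 3 nearest profiles among genes whose highest group mean reached 5 CPM; others were chosen after their values were seen. A list and a gene of another list are not reported here. No identical libraries were found.

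Same-numbered 3D and 2D libraries of an origin deviated together from their group means (correlations of 0.474 to 0.513 in hepCLiP and 0.432 to 0.506 in bilCLiP), so the replicate number was taken to pair them. Alternatives were no filter, RLE or total-count scaling, a replicate block, only the groups compared, RosaYFP samples only, DESeq2 1.42.0 and leaving out each library.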

Additional observations from a re-analysis of the deposited data

How the results depend on the processing

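Flna, Actn1, Tpm1 and Cnn2 kept their direction in all 20 alternatives in each origin. Their calls in 3D against 2D were kept in every one, except Tpm1 (adjusted p = 0.0961) and Flna (adjusted p = 0.0729) in hepCLiP with RosaYFP samples only, where each hepCLiP culture has 1 library that is assumed to vary like the others; 2 of the 7 genes were then called lower in hepCLiP and 769 genes in all. Cnn1 kept its call in 10 of 20 alternatives in hepCLiP and 9 of 20 in bilCLiP, and lost it without the low-count filter (adjusted p = 0.126 in hepCLiP and 0.134 in bilCLiP). Myl9 in hepCLiP passed under total counts (adjusted p = 0.0304) and DESeq2 (adjusted p = 0.00905), and Tpm2 in bilCLiP under DESeq2 (adjusted p = 0.0378). The replicate block gained Myl9 and Tpm2 in both origins and changed no other culture call of the 7 genes.

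Genes called with culture were 7915 in hepCLiP and 6754 in bilCLiP under total counts, and 2653 in bilCLiP without bilCLiP replicate 3 in both cultures. Leaving out each library gave 4133 to 5227 calls in hepCLiP, 3086 to 4555 in bilCLiP and 4 to 5 of the 7 genes lower in each. Calls by origin in 2D (20) were 62 with a replicate block, 5 with only the groups compared, 5 with RosaYFP samples, 559 with DESeq2, 3 without bilCLiP replicate 3 and 6 to 31 without a library. In 3D (15) they were 44, 3, 12, 652, 4 and 3 to 251, the highest without hepCLiP 3D replicate 3. Total counts moved the median of all genes in 3D by 0.15 (73.3% of calls higher, against 53.3%). Same-numbered libraries of the 2 origins correlated at only 0.0218 to 0.150. Except for bilCLiP replicate 3 in 2D, each of these correlations was still above those with the other numbers. Whether a shared number marks anything common to the 2 origins is unknown. The difference of culture effects had 16 calls with DESeq2 and 0 to 3 without a library.

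Reversed values were all uncalled and concern origin or the difference of culture effects. Cnn2 in 2D became 0.00996 without the filter, 0.0345 under total counts, 0.0448 with the block, 0.00952 with only the groups compared and 0.59 with RosaYFP samples. RosaYFP samples also gave 3.38 for Cnn1 and 0.29 for Flna in 2D, 1.79 for Cnn1 in 3D, and -0.34 for Tpm1 and 0.0601 for Tpm2 in the difference of effects. The block gave -0.24 for Myl9 in 2D and 0.11 for Cnn1 in the difference. Without bilCLiP replicate 3, 2D gave -1.56 for Myl9, -0.0106 for Tpm1, -0.10 for Tpm2 and -0.0224 for Actn1, and 3D gave -0.22 for Tpm2. Leaving out each library, the 2D values ran from -2.41 to 0.79 for Cnn1, -0.26 to 0.45 for Cnn2, -1.56 to 1.92 for Myl9, -0.22 to 0.35 for Tpm1, -0.10 to 2.16 for Tpm2, -0.12 to 0.20 for Actn1 and -0.28 to 0.0383 for Flna. In 3D they ran from -1.28 to 0.0803 for Cnn1 and -0.22 to 2.39 for Tpm2. For the difference they ran from -1.56 to 1.64 for Cnn1, -0.0545 to 7.05 for Myl9, -0.0391 to 0.53 for Tpm1 and -1.62 to 1.09 for Tpm2. The cause was not tested. Depth limits Tagln, Acta2 and Actg2, which without the filter gave no adjusted p under 0.05 in any contrast.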

Other observations

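Actin also builds microvilli, and 9 of 12 microvillus and cortical actin genes were tested. In hepCLiP 3D against 2D, 1 rose and 3 fell, and in bilCLiP 1 rose and 1 fell. Cdhr2, a protocadherin of brush border microvilli, averaged 30.1 ± 11.5 CPM in hepCLiP 3D and 1.42 ± 0.673 CPM in hepCLiP 2D, and 24.1 ± 6.92 CPM in bilCLiP 3D and 3.53 ± 3.62 CPM in bilCLiP 2D (SD, n = 3 each). Ezr, which encodes ezrin and ties actin to the membrane, averaged 129 ± 48.3 CPM in hepCLiP 3D and 823 ± 236 CPM in hepCLiP 2D, and 153 ± 27.0 CPM in bilCLiP 3D and 797 ± 180 CPM in bilCLiP 2D. Both were called by edgeR's quasi-likelihood test in each origin, with adjusted p = 0.00335 and 0.0243 for Cdhr2 and 0.000278 and 0.000551 for Ezr in hepCLiP and bilCLiP. The list median was -0.33 in hepCLiP and -0.47 in bilCLiP, and 0.05 and 0.01 with the replicate block, so no direction is given for the list. With the block 2 rose and 3 fell in bilCLiP.

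Acta1, the skeletal muscle actin gene, was read in single libraries. It had 10, 7 and 0 counts in hepCLiP 3D and 152, 9 and 9 counts in hepCLiP 2D. It had 0, 2 and 4 counts in bilCLiP 3D and 1, 4 and 74 counts in bilCLiP 2D. The high libraries were hepCLiP 2D replicate 1, which also had the highest Cnn1 and Myl9 of its group, and bilCLiP 2D replicate 3, which also had the highest Myl9 and Tpm2 of its group.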
